A study of Mus musculus with 2 samples.

Results

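A set of 10 genes of the MHC class I presentation pathway, among 32285 genes counted, was followed across the cell types of the injured mouse kidney. They were given as a list of names. They comprise the heavy chains H2-K1, H2-D1 and H2-T23, the light chain B2m, the peptide transporter subunits Tap1 and Tap2, the loading factor Tapbp, the immunoproteasome subunits Psmb8 and Psmb9, and the transcriptional regulator Nlrc5. Kidneys were taken 14 days after the renal artery of 1 kidney had been clamped and released (unilateral ischaemia and reperfusion), and single-cell RNA sequencing of transcript 3′ ends in droplets was run on their dissociated cells. Each group was a single library. The control library came from mice without Cre (Cre-). The haplodeficient library came from Cdh5-CreERT2; Phd3f/+ mice, with a floxed Phd3 allele and a tamoxifen-inducible Cre that the Cdh5 promoter, active in endothelium, drives. Both groups had the injury and 4 tamoxifen injections, and both libraries carry the same batch label. Whether control mice also had the floxed allele, and the strain, age and number of animals behind a library, are not stated in the labels. The study's title asks about endothelial prolyl hydroxylase 3, an oxygen-using enzyme encoded by Egln3, in inflammation and repair after ischaemia.

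MHC class I molecules show peptides from inside a cell to CD8 T cells. Proteasomes cut proteins into peptides, the TAP transporter carries these into the endoplasmic reticulum, tapasin (Tapbp) holds an empty heavy chain and B2m beside the transporter, and the loaded complex moves to the surface. Interferons raise most genes of the pathway, replace the standard catalytic proteasome subunits with Psmb8, Psmb9 and Psmb10, and raise Nlrc5, which acts on class I promoters. Leukocytes and endothelium are known to carry much class I, and resting tubule epithelium less.

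Cells were barcodes with 500 or more UMIs (unique molecular identifiers, 1 per captured transcript) and 200 or more genes, of whose UMIs no more than 50% were mitochondrial; likely doublets were removed. This left 8737 control and 9222 haplodeficient cells, with medians of 8762 and 5472 UMIs. The 2 libraries shared 23 barcodes. Cells were grouped by clustering and named from marker lists, always as "-like" classes, and 16 classes with at least 50 cells in each library were compared. The tubule comprises 6 of them (proximal tubule, thin limb, thick ascending limb, distal convoluted tubule, principal or connecting tubule, and intercalated cells), the vessels 2 (endothelium, and pericytes or smooth muscle) and the leukocytes 5 (macrophages, monocytes, dendritic cells, neutrophils and T cells). Injured tubule-like, podocyte-like and fibroblast-like cells were kept apart. Summed markers were highest in their own class in both libraries for 14 of the 16 classes. The injured tubule list was higher in thin limb-like cells of the haplodeficient library, and the podocyte list was higher in endothelial-like than in podocyte-like cells. The latter class was led by Igfbp2, Tnc, Wnt16 and Wt1. Tubule-like cells were 63.7% of control and 34.8% of haplodeficient cells, and cells of the 5 leukocyte classes 15.5% and 40.2%. Egln3, the targeted gene, had 58 UMIs in 362 control and 111 UMIs in 793 haplodeficient endothelial-like cells, and since a recombined allele may still give 3′ reads this checks nothing. A group being 1 library, nothing could be tested between groups, and p-values are not given. Ranges in parentheses or brackets after a value are 95% intervals that cover counting error alone. The range after a median over the genes holds the medians of their lower and upper limits, and is not an interval of that median. The words "higher" or "lower" of a gene in a class mean that the interval of its ratio between the libraries excluded 1.

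Of the 10 genes, 8 lie on chromosome 17, most of them within the MHC region, with Tap1, Tap2, Psmb8 and Psmb9 side by side. In GENCODE M21 on GRCm38, Psmb9 spans chr17:34181987-34187764 on the minus strand, Tap1 chr17:34187553-34197225, Psmb8 chr17:34197721-34201454 and Tap2 chr17:34203527-34216321, all 3 on the plus strand. The 5′ ends of Psmb9 and Tap1 overlap on opposite strands. H2-K1 (chr17:33996017-34000347, minus strand), Tapbp (chr17:33915899-33929292, plus strand), H2-D1 (chr17:35262730-35267499, plus strand) and H2-T23 (chr17:36029773-36032855, minus strand) lie on either side. B2m is at chr2:122147686-122153083 and Nlrc5 at chr8:94434356-94527272, both on the plus strand. All 10 are protein coding. H2-K1, H2-D1 and H2-T23 belong to a family of near-identical copies, so their counts are uncertain where reads could be shared between copies.

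Promoters of both classical heavy chains, the light chain and Tap1 are shown, because the first 3 share named motifs in 1 arrangement. RefSeq promoters on GRCm38.p6 were found for 8 of the 10 genes, and the last 230 bases before the start site are printed 5′ to 3′ on the gene's strand for H2-K1 (chr17:34000348-34000577, minus strand, first of 2 annotated starts), H2-D1 (chr17:35262864-35263093, plus strand), B2m (chr2:122147457-122147686, plus strand) and Tap1 (chr17:34187326-34187555, plus strand). Capitals mark matches, on either strand, to a kappaB motif (the first run of capitals in the H2-K1 and H2-D1 lines), to interferon elements (GAANNGAAA, or the longer GAAA, any 2 bases, GAAA), and to the TGACG and ATTGG cores of the X2 and Y boxes of MHC promoters.
H2-K1: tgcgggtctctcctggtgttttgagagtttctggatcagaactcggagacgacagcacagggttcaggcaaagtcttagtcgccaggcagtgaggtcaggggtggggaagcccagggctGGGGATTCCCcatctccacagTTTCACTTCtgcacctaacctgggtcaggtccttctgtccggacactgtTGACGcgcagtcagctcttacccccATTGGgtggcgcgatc
H2-D1: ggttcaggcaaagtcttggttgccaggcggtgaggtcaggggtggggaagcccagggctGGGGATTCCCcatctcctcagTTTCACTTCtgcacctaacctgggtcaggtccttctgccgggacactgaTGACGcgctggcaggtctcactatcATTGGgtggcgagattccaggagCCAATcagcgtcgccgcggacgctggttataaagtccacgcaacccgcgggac
B2m: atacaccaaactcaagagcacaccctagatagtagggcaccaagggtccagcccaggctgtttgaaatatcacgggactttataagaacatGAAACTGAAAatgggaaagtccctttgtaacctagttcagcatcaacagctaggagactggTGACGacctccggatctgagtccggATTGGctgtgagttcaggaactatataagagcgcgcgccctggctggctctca
Tap1: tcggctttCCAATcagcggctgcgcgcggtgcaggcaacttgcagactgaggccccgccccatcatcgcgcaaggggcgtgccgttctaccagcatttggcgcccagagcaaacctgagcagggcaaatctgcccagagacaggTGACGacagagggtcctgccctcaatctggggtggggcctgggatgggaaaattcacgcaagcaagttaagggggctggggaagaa

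H2-K1 and H2-D1 both held the kappaB letters, which 0.107% of 32851 promoter windows of 300 bases hold, followed downstream by GAANNGAAA read on the other strand (7.52% of windows). B2m had no GAANNGAAA, and held the longer form (3.44% of windows) at positions -139 to -130 from the start; that form was added after its sequence was seen. In H2-K1, H2-D1 and B2m alike, TGACG was followed by ATTGG with their first bases 25 bases apart. A TGACG followed by ATTGG within 30 bases is found in 0.776% of windows, while TGACG alone is in 20.8% and ATTGG alone in 37.4%. Tap1 held TGACG at -86 to -82 and an ATTGG read on the other strand at -222 to -218. The Tap1 window and that of Psmb9, its neighbour on the opposite strand, overlap by 275 bases, so both hold that TGACG. Tapbp had ATTGG alone, Psmb8 none of these motifs, and H2-T23 the longer interferon element and ATTGG. A match is a match of letters only. No promoter entry was used for Tap2 or Nlrc5.

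The class I genes were higher in the haplodeficient than in the control library across the tubule, and by less in vessels and leukocytes. A level is the share of a gene in all UMIs of a class, in CPM. A difference is a log2 ratio, haplodeficient over control, with 5 CPM added to both levels. With every class weighted equally, the median over the 10 genes was 0.83 (0.73 to 0.94) in the tubule, 0.23 (0.11 to 0.38) in vessels and 0.28 (0.15 to 0.42) in leukocytes. In the tubule 48 of 60 gene-by-class pairs were higher and 1 lower, where 40.3% of all gene-by-class pairs that met a minimum mean of 50 CPM and 30 UMIs were higher and 26.9% lower. In vessels 8 of 20 pairs were higher and 1 lower (20.2% and 19.4% of all), and in leukocytes 27 of 50 were higher and 2 lower (17.6% and 22.4% of all). Over the 16 classes it was 92 of 160 higher and 8 lower, against 27.8% and 23.2%. Of these 160 pairs 111 met the minimum of 50 CPM and 30 UMIs, and the counts up to here are over all pairs. The median over the 60 tubule pairs was 0.85, where the median over all gene-by-class pairs was 0.07. A difference of at least 1 on the log2 scale with intervals that did not overlap was counted only among pairs that met the minimum. There it was met by 14 of 33 tubule pairs (0.877% of all) and 1 of 44 leukocyte pairs (1.1% of all), each higher. The leukocyte pair was Psmb9 in monocyte-like cells.

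**Figure D1:**
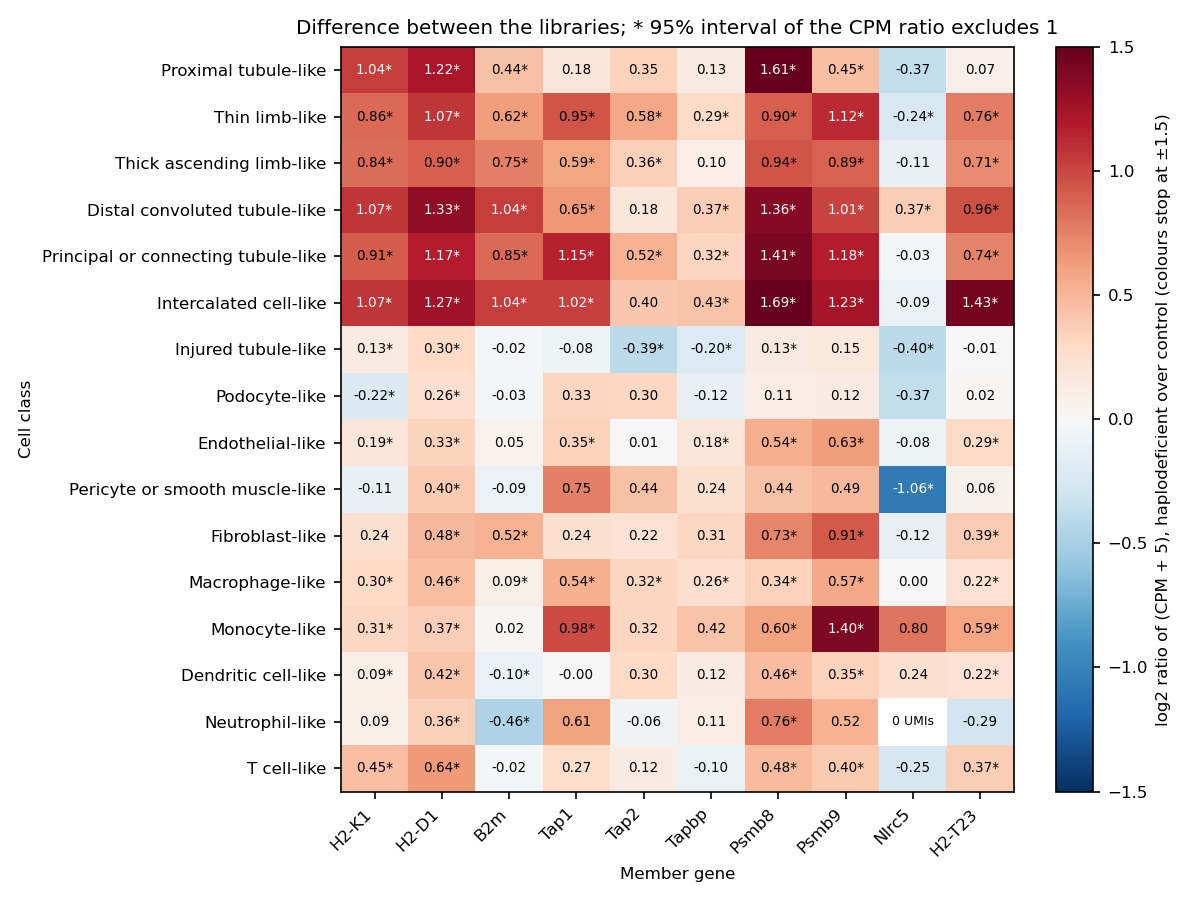
Heat map of the log2 ratio (haplodeficient over control, after adding 5 CPM) of each of the 10 genes in each of the 16 classes, with an asterisk where the 95% interval of the CPM ratio excludes 1. The 6 tubule classes at the top hold most of the large positive values, the injured tubule-like row is near 0 or below it, and Nlrc5 is the column without a common direction; it had 0 UMIs in control neutrophil-like cells, so no ratio is drawn there.

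H2-K1, a classical class I heavy chain, went in the tubule from 210.3 to 437 CPM in proximal tubule-like cells, from 954 to 1731 CPM in thin limb-like, from 304 to 547 CPM in thick ascending limb-like, from 365 to 774 CPM in distal convoluted tubule-like, from 546 to 1029.6 CPM in principal or connecting tubule-like and from 482 to 1017 CPM in intercalated cell-like cells. It was higher in all 6, with ratios from 1.80 [1.74 to 1.87] in the thick ascending limb to 2.12 [2.02 to 2.22] in the distal convoluted tubule, where the main cluster alone had 1.82 [1.74 to 1.91]. In vessels it went from 1742 to 1984 CPM in endothelial-like cells, a ratio of 1.14 [1.10 to 1.18], and from 458 to 423 CPM in pericyte- or smooth muscle-like cells, where the interval included 1. Among leukocytes H2-K1 differed most in T cell-like cells, from 1929.9 to 2646 CPM, with a ratio of 1.37 [1.29 to 1.46], and its interval included 1 in neutrophil-like cells (479 to 509 CPM). It was lower in podocyte-like cells alone, from 2089.6 to 1797 CPM, a ratio of 0.860 [0.816 to 0.907]. That direction turned under 3 alternatives that redraw the class, to log2 ratios of 0.10 to 0.25.

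The order of the classes by H2-K1 differed between the libraries. In the control the highest were podocyte-like, T cell-like and endothelial-like cells, the first pair with overlapping intervals. In the haplodeficient library the order was T cell-like, endothelial-like, podocyte-like and thin limb-like cells, and the intervals of the last pair overlapped. Thin limb-like cells thus stood above monocyte-like (1523 CPM), macrophage-like (1361 CPM) and dendritic cell-like cells (1142 CPM), each of which was above them in the control (1224, 1107 and 1074 CPM). Proximal tubule-like cells were the lowest of the 16 in the control, and fibroblast-like cells in the haplodeficient library.

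H2-D1, the other classical heavy chain, was higher in all 16 classes. In distal convoluted tubule-like cells it went from 279 to 706 CPM, a ratio of 2.54 [2.41 to 2.67]. Within the cluster that held most of them in both libraries it went from 344 to 729 CPM, a ratio of 2.12 [2.01 to 2.24] and a log2 ratio of 1.07, which is below the 1.27 of intercalated cell-like cells. Intercalated cell-like cells went from 388 to 939 CPM, proximal tubule-like from 151 to 357 CPM and thin limb-like from 803 to 1694 CPM. All 6 tubule ratios were at or above 1.89 [1.82 to 1.96], that of the thick ascending limb. Outside the tubule the largest was that of T cell-like cells, 1.56 [1.46 to 1.68], from 1486 to 2324 CPM. Endothelial-like cells, the class with most H2-D1 in both libraries, went from 2001 to 2515 CPM, a ratio of 1.26 [1.22 to 1.30], and macrophage-like cells from 1619 to 2221 CPM. The smallest difference was that of podocyte-like cells, 0.26 on the log2 scale.

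Of the UMIs of both heavy chains, the share of H2-K1 was lower in the haplodeficient library in 16 of 16 classes, and its exact binomial intervals did not overlap in 11 of them. The share went from 60.2% to 52.1% in podocyte-like, from 54.2% to 49.6% in principal or connecting tubule-like, from 47.2% to 41.5% in dendritic cell-like and from 40.6% to 38.0% in macrophage-like cells. The smallest move was in monocyte-like cells, from 42.2% to 41.2%. H2-D1 thus had the larger ratio of both heavy chains in every class. Neither the strain nor the MHC haplotype of the mice is stated in the labels, and how reads of related heavy chains were assigned was not tested.

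**Figure D2:**
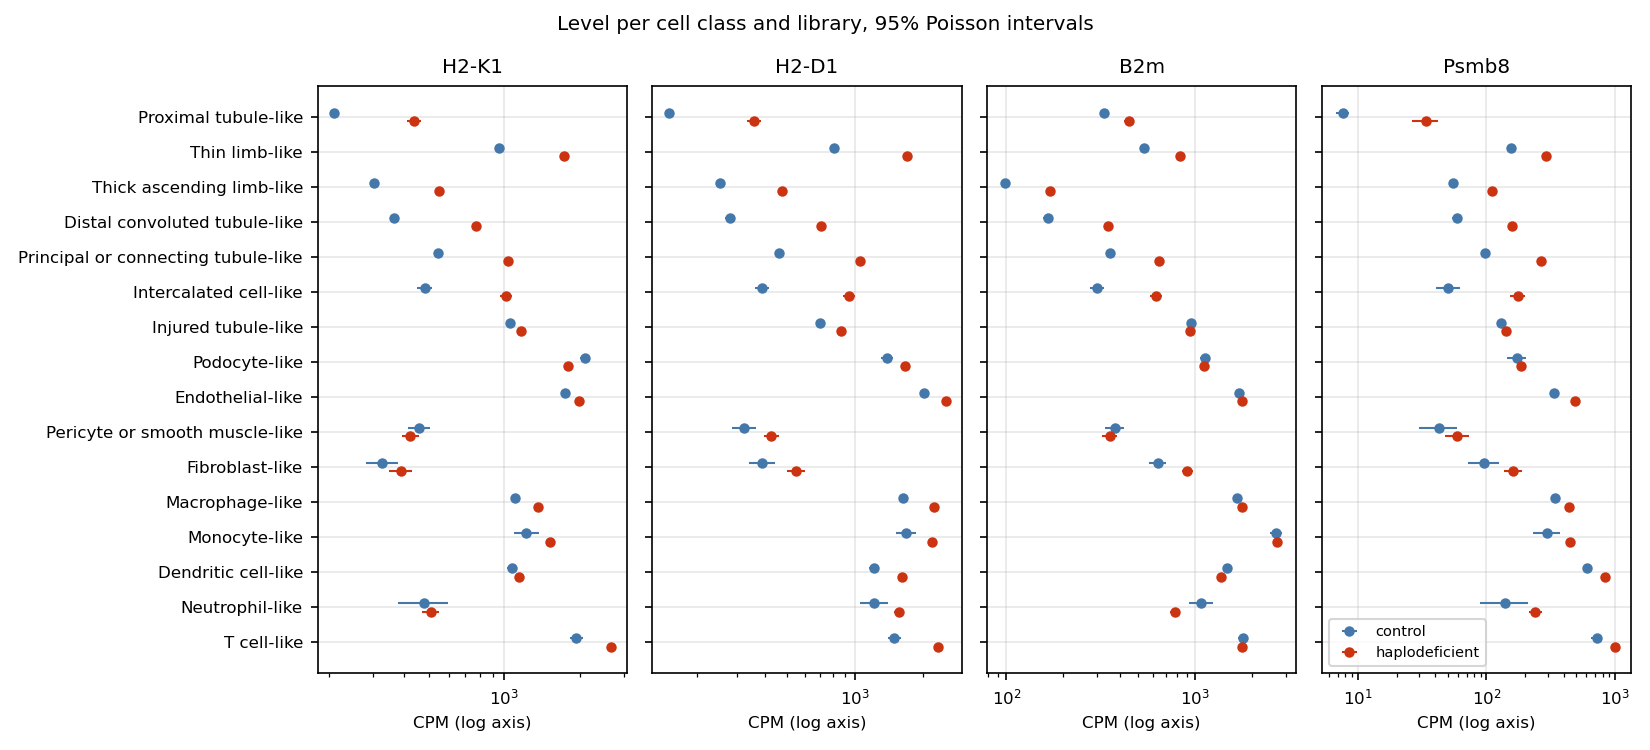
Level of H2-K1, H2-D1, B2m and Psmb8 in each class, in CPM on a log axis, for the control (blue) and haplodeficient library (red), with bars for the 95% Poisson interval. The 6 tubule classes at the top show a gap between the libraries for all 4 genes, and outside the tubule the B2m points of most classes lie close together.

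B2m, the light chain that every class I heavy chain needs, was higher in all 6 tubule classes and in few others. It went from 166 to 346 CPM in distal convoluted tubule-like cells (ratio 2.09 [1.95 to 2.24], and 1.81 [1.68 to 1.95] in the main cluster), from 300.3 to 622 CPM in intercalated cell-like, from 98.7 to 169.7 CPM in thick ascending limb-like and from 327 to 446 CPM in proximal tubule-like cells, where the ratio was smallest at 1.36 [1.28 to 1.46]. In endothelial-like cells it was at 1707 and 1764 CPM, in T cell-like cells at 1785 and 1764 CPM and in monocyte-like cells at 2669 and 2699 CPM, and those intervals included 1. Fibroblast-like (ratio 1.43 [1.27 to 1.63]) and macrophage-like cells (1.06 [1.04 to 1.09]) were also higher, the latter at about 0 on the log2 scale under 4 alternatives. B2m was lower in neutrophil-like cells, from 1072 to 779 CPM on 177 and 926 UMIs, a ratio of 0.727 [0.618 to 0.858], and in dendritic cell-like cells (0.933 [0.885 to 0.984]), which turned to 0.028 and 0.071 on the log2 scale under 2 alternatives. Over the leukocyte classes the mean level went from 1731 to 1675 CPM, and over the tubule classes from 297 to 509 CPM. Those are log2 ratios of -0.05 (-0.10 to 0.01) and 0.77 (0.73 to 0.81), beside 0.46 (0.40 to 0.51) and 1.15 (1.12 to 1.18) for H2-D1.

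Of the transporter and loading genes, Tap1 differed in the tubule about as much as the heavy chains, with a log2 ratio of 0.84 (0.71 to 0.97) of the tubule mean, and Tap2 (0.43 (0.30 to 0.55)) and Tapbp by less. Tap1, a subunit of the peptide transporter, was higher in 5 of 6 tubule classes, at low levels: from 19.6 to 42.4 CPM in thin limb-like cells (ratio 2.16 [1.78 to 2.65]) and from 13.5 to 36.0 CPM in principal or connecting tubule-like cells (2.67 [2.09 to 3.45]). In proximal tubule-like cells it was at 3.33 and 4.42 CPM, on 116 and 10 UMIs, with an interval that included 1. It was also higher in endothelial-like (58.5 to 75.9 CPM), macrophage-like (40.5 to 61.1 CPM) and monocyte-like cells (45.8 to 95.3 CPM). Dendritic cell-like cells, the class with most Tap1, were at 116 and 115 CPM, with an interval that included 1. Tap2, the partner subunit, was higher in 4 classes, 3 of them tubular, with the largest ratio in thin limb-like cells (1.55 [1.34 to 1.80]). It was lower in injured tubule-like cells, from 52.8 to 39.1 CPM, a ratio of 0.740 [0.635 to 0.860]. In endothelial-like cells, where it was highest in both libraries, Tap2 was at 113 CPM in each library.

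Tapbp, which encodes tapasin, differed least among the 9 genes with a higher tubule mean, with a tubule log2 ratio of 0.31 (0.23 to 0.39). Its tubule ratios ranged from 1.08 [0.994 to 1.16] in thick ascending limb-like to 1.36 [1.12 to 1.64] in intercalated cell-like cells. It was higher in endothelial-like (1.14 [1.00 to 1.29]) and macrophage-like cells (1.20 [1.09 to 1.34]) and lower in injured tubule-like cells (0.864 [0.779 to 0.957]). With other weights or naming of cells the latter was 0.031 and 0.14 on the log2 scale, and with deeper endothelial-like cells alone their value was -0.016. In the leukocytes it went from 112 to 126 CPM, against 92.6 to 116 CPM in the tubule, the smallest gap between the compartments among the 10 genes.

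The immunoproteasome subunit genes were higher in most classes, Psmb8 in 14 and Psmb9 in 12 of 16, and the log2 ratio of each was above 0 in 16 of 16. In intercalated cell-like cells Psmb8 went from 50.6 to 174 CPM (ratio 3.45 [2.68 to 4.46]), principal or connecting tubule-like from 97.8 to 268 CPM and distal convoluted tubule-like from 58.9 to 159 CPM. Thin limb-like cells, with the most Psmb8 in the tubule, went from 155 to 292 CPM and thick ascending limb-like cells from 55.1 to 111 CPM. In proximal tubule-like cells it was at 7.62 and 33.6 CPM, on 265 and 76 UMIs; free RNA could account for 24.3% and 19.7% of these UMIs. Among leukocytes Psmb8 went from 720.4 to 1004 CPM in T cell-like, from 607 to 838 CPM in dendritic cell-like and from 342 to 435 CPM in macrophage-like cells. Endothelial-like cells went from 334 to 488 CPM, a ratio of 1.46 [1.35 to 1.58], so each of these differences was larger than counting error but smaller than any in the tubule. Psmb9 was higher in all 6 tubule classes, for example from 21.9 to 55.9 CPM in principal or connecting tubule-like cells (ratio 2.55 [2.10 to 3.12]), though on only 89 and 12 UMIs in proximal tubule-like cells. Its largest log2 ratio, 1.40, was in monocyte-like cells, from 54.1 to 151 CPM on 13 and 275 UMIs.

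Psmb8, Psmb9 and Psmb10 take the places of Psmb5, Psmb6 and Psmb7, so their share of each pair was taken within a class, a measure free of the CPM scaling. Psmb8 as a share of Psmb8 plus Psmb5 was higher in 6 of 6 tubule classes with intervals apart. It was 37.6% [35.3 to 40.0] (control) against 53.1% [51.4 to 54.8] (haplodeficient) in principal or connecting tubule-like cells and 22.3% [18.4 to 26.7] (control) against 41.6% [37.3 to 46.0] (haplodeficient) in intercalated cell-like cells. In thick ascending limb-like cells it went from 22.9% to 30.5%, and in proximal tubule-like cells, on those few haplodeficient Psmb8 UMIs, from 4.20% to 12.9%. In the leukocytes the share was high in both libraries and no interval separated them: from 71.3% to 71.4% in macrophage-like, from 83.3% to 83.6% in dendritic cell-like and from 82.8% to 86.0% in T cell-like cells. Endothelial-like cells went from 74.0% to 75.2%. In endothelial-like and macrophage-like cells Psmb5 itself was higher as well, with log2 ratios of 0.44 and 0.33, near those of Psmb8 (0.54 and 0.34). Psmb9 as a share of Psmb9 plus Psmb6 was apart in 4 of 6 tubule classes, such as thin limb-like cells (12.5% to 20.4%), and also in endothelial-like (49.3% to 56.5%) and monocyte-like cells (26.5% to 53.4%). Psmb10 as a share of Psmb10 plus Psmb7 was apart in 6 of 6 tubule classes and in endothelial-like cells (65.2% to 71.9%). In injured tubule-like cells the Psmb8 share was not higher, with values of 35.3% [33.9 to 36.8] (control) against 32.1% [30.4 to 33.9] (haplodeficient).

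**Figure D3:**
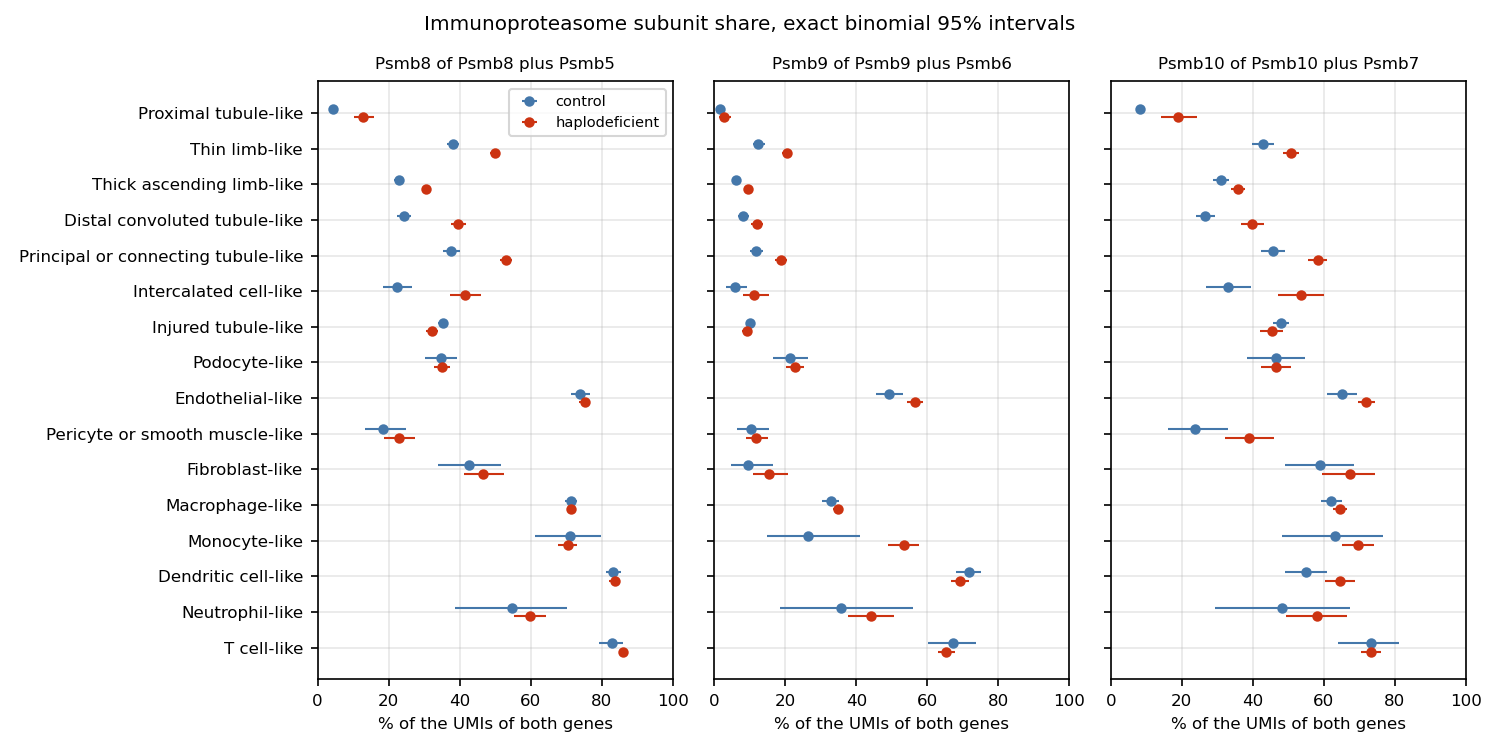
Share of the immunoproteasome gene among the UMIs of it and its standard counterpart, in percent, per class, for the control (blue) and haplodeficient library (red), with exact binomial 95% intervals. For Psmb8 and Psmb10 the red point lies to the right with no overlap in the 6 tubule classes, while the Psmb8 intervals of the 5 leukocyte classes overlap.

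H2-T23 encodes Qa-1, a non-classical heavy chain that presents signal peptides of other class I molecules to NKG2A-type receptors. It was higher in 5 of 6 tubule classes, most in intercalated cell-like cells, from 54.5 to 155 CPM, a ratio of 2.85 [2.22 to 3.68]. In proximal tubule-like cells it was at 57.8 and 60.9 CPM, with an interval that included 1, in contrast to H2-K1 and H2-D1 in the same cells. It was also higher in endothelial-like (313 to 384 CPM), T cell-like (318 to 414 CPM) and macrophage-like cells (212 to 248 CPM). Its value was -0.29 on the log2 scale in neutrophil-like cells, on 27 and 158 UMIs, with an interval that included 1.

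Nlrc5, a regulator of class I genes, did not share the difference of the other genes. It met the minimum in 0 of 6 tubule classes. Its tubule mean was 18.1 to 17.9 CPM, a log2 ratio of -0.01 (-0.15 to 0.12), and it was higher in distal convoluted tubule-like cells alone, from 28.8 to 38.6 CPM (ratio 1.34 [1.11 to 1.62]). It was lower in thin limb-like (31.3 to 25.8 CPM), injured tubule-like (23.7 to 16.8 CPM) and pericyte- or smooth muscle-like cells (26.7 to 10.2 CPM, on 22 and 15 UMIs). None of these directions but that of thin limb-like cells kept its sign under every alternative. For thin limb-like cells the interval included 1 with a UMI minimum of 1000, own UMI minimums or doublets kept. It also did with Leiden resolution 2 or each cell named alone. T cell-like cells had the most Nlrc5 in both libraries, at 205 and 172 CPM, and the interval included 1. Control neutrophil-like cells had 0 UMIs of Nlrc5, which allows up to 18.2 CPM, and the haplodeficient ones 16.8 CPM, so no ratio is given. Of the other regulators, Irf1, an interferon-induced activator of these genes, was lower in 7 classes and higher in 6, from 303 to 245 CPM in thin limb-like and from 74.9 to 152 CPM in monocyte-like cells. Rfx5, which binds the X box of MHC promoters, met the minimum in 0 classes.

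**Figure D4:**
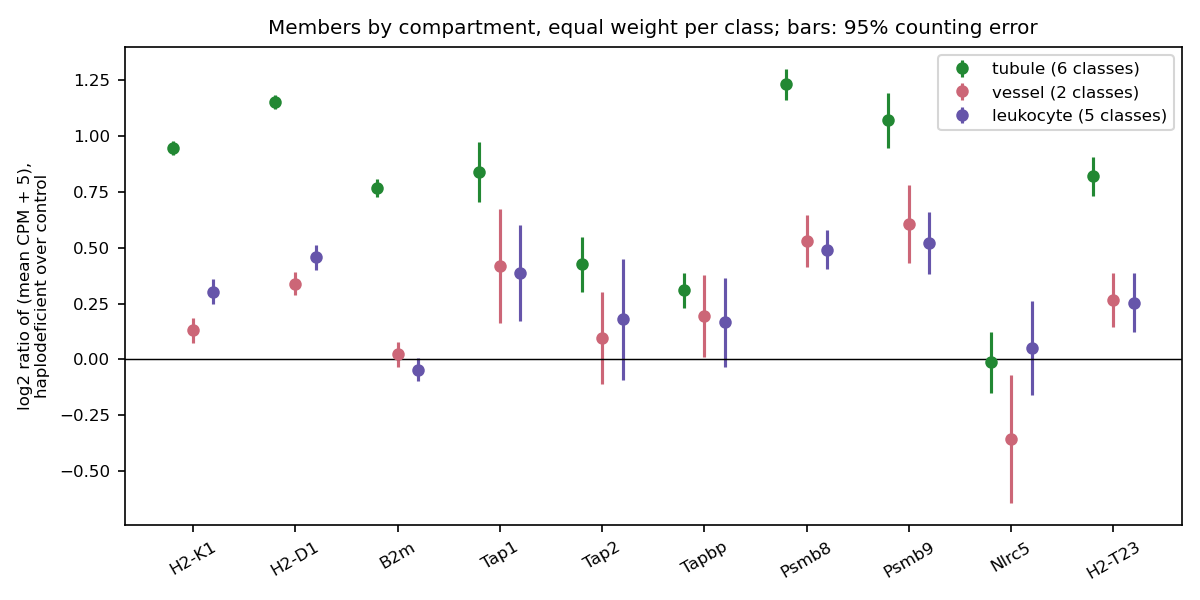
Log2 ratio (haplodeficient over control, after adding 5 CPM) of the mean CPM over the classes of each compartment, for the 10 genes, with bars for 95% counting error. The tubule (green) lies above vessels (pink) and leukocytes (purple) with no overlap for H2-K1, H2-D1, B2m, Tap1, Psmb8, Psmb9 and H2-T23, and Nlrc5 is at or below 0 in the tubule and vessels.

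As means over their classes, leukocytes and vessels carried more of most of these genes than the tubule in both libraries. The median gap was narrower in the haplodeficient library. For most genes the vessel excess was that of endothelial-like cells alone. Pericyte- or smooth muscle-like cells were below the tubule mean for all genes but B2m, Psmb9 and Nlrc5 in the control, and all but Psmb9 in the haplodeficient library. Their H2-D1, for example, was at 323 against 389 CPM (control) and 427 against 870 CPM (haplodeficient). Tapbp differed least between vessels and tubule, with vessels at 1.01 and 0.935 times the tubule mean. The median over the genes of the log2 ratio of leukocytes over tubule was 1.85 (1.76 to 1.95) in the control library. It was 1.42 (1.31 to 1.52) in the haplodeficient one. That of vessels over tubule was 1.33 (1.19 to 1.48) and 0.76 (0.66 to 0.86). B2m was 5.83 times as high in leukocytes as in the tubule in the control, and 3.29 times in the haplodeficient library. For Psmb9 it was 10.2 and 5.96 times, and for H2-K1 2.44 and 1.56 times. For Nlrc5 it was 3.33 and 3.50 times, where neither compartment differed between the libraries beyond counting error. Its log2 ratios were 0.05 (-0.16 to 0.26) in leukocytes and -0.01 (-0.15 to 0.12) in the tubule. In the control, 5 of the 10 genes (H2-D1, B2m, Tap1, Psmb9 and H2-T23) were higher in every leukocyte class than in every tubule class, where 7.56% of all genes were. Here all genes are those with a mean of at least 50 CPM over the classes, a minimum not asked of the 10. In the haplodeficient library this held for Psmb9 alone, beside 6.72% of all genes. For vessels it held for 0 genes in either library (12.3% and 11.8% of all). H2-K1, for example, was at 458 CPM in control pericyte- or smooth muscle-like cells, below the 954 CPM of thin limb-like cells.

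The classes differed in how many of the 10 genes were higher. It was 9 in thin limb-like cells (33.8% of all genes that met the minimum), 8 in thick ascending limb-like (49.2%), 9 in distal convoluted tubule-like (44.7%), 9 in principal or connecting tubule-like (39.4%) and 8 in intercalated cell-like cells (26.4%). In proximal tubule-like cells it was 5 of 10, near the 50.9% of all genes that met the minimum, which had a median log2 ratio of 0.19. Only 4 of the 10 met that minimum there, and 3 of these were higher. The 277 haplodeficient proximal tubule-like cells were also spread over clusters in other proportions than the 2875 control ones: 140 were of a shallow cluster (median 2079 UMIs) that held 640 of the control cells. Distal convoluted tubule-like cells were also mixed differently: a cluster led by Slc12a3, Calb1 and Pvalb held 157 of 569 control but 15 of 378 haplodeficient cells. Within the other cluster (412 and 363 cells) the median over the 10 genes was 0.83, with 0.86 for H2-K1, 0.84 for B2m and 1.09 for Psmb8. Of the thick ascending limb-like cells, a cluster led by Egf and Umod held 397 control and 188 haplodeficient cells, with a median of 1.04 and an H2-D1 ratio of 3.54 [3.18 to 3.95]. The other clusters of that class held 276 and 511 cells (median 0.64) and 313 and 354 cells (median 0.36), with H2-D1 ratios of 1.56 [1.48 to 1.64] and 1.76 [1.64 to 1.89]. With the same cluster weights in both libraries the tubule median was 0.81. In injured tubule-like cells, a class with Havcr1, Vcam1 and Krt20, 3 genes were higher (H2-K1, H2-D1 and Psmb8) and 3 lower (Tap2, Tapbp and Nlrc5), where 38.7% of genes were higher and 30.1% lower. Its control levels were already high: H2-K1 at 1056 CPM and B2m at 947 CPM, against 210.3 and 327 CPM in proximal tubule-like cells. Podocyte-like cells had 1 gene higher and 1 lower (13.8% and 14.9% of all genes), and pericyte- or smooth muscle-like cells likewise (16.0% and 13.3%), shares near those of all genes. Outside the 16 classes, 8 of the 10 genes were higher in an unnamed cluster led by Slc26a4 (36.1% of all genes that met the minimum), 5 in urothelium-like (7.37%) and 3 in NK cell-like cells (9.82%). In an unnamed cluster led by Sox17, 1 was higher and 2 were lower (12.4% and 22.1%), and in one led by Igkc and Siglech 0 were higher (12.4%).

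Endothelial-like cells, the ones in which Cre was to act, had 7 genes higher and 0 lower (24.1% and 25.1% of all genes), with a median of 0.24 over the 10. Their subtypes were uneven. In activated-like cells, marked by Selp and Sele, 10 of 10 log2 ratios were above 0 with a median of 0.40, for example H2-K1 from 1993 to 2632 CPM and Psmb9 from 181 to 319.7 CPM. Arterial-like cells had a median of 0.42. Glomerular-like cells were at 0.08 and descending vasa recta-like cells at -0.03, with 5 of 10 above 0. The subtypes held between 41 and 99 control cells. Macrophage-like cells had 9 genes higher (30.6% of all), monocyte-like 6 (12%), dendritic cell-like 5 (21.3%), T cell-like 5 (16.0%), fibroblast-like 5 (16.2%) and neutrophil-like 2 (9.23%). Among macrophage-like cells the median was 0.42 in a cluster led by Ccl12 and Ccl7 and 0.23 in one led by Gpnmb. It was 1.23 in a shallow cluster (median 913 UMIs; 75 control and 216 haplodeficient cells) whose leading genes include the cell division genes Birc5 and Cenpf, where H2-D1 went from 566 to 1604 CPM.

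The share of cells in which a gene was seen was compared at equal depth, with every cell sampled down to 1000 UMIs. Shallower cells were left out, at most 160 of a control class (proximal tubule-like) and 125 of a haplodeficient class (macrophage-like). H2-D1 was then seen in 48.9% (43.9 to 53.9) of control cells, and in 74.1% (70.8 to 77.3) of haplodeficient cells, in the thin limb-like class, and in 29.0% (22.3 to 36.5) of control cells, and in 57.5% (47.9 to 66.8) of haplodeficient cells, in the intercalated cell-like class. B2m was seen in 9.36% (7.58 to 11.4) of control cells, and in 17.1% (14.9 to 19.6) of haplodeficient cells, in the thick ascending limb-like class, and Psmb8 in 8.19% (5.99 to 10.9) of control cells, and in 23.4% (20.1 to 27.1) of haplodeficient cells, in the principal or connecting tubule-like class. Unthinned, these shares were 85.9% and 91.2%, 80.2% and 91.4%, 49.9% and 67.8% and 46.6% and 66.9%, at median depths of 8659 to 11497 UMIs in control and 5179 to 10221 UMIs in haplodeficient tubule classes. The intervals of the thinned shares were apart in 6 of 6 tubule classes for H2-K1, H2-D1 and B2m, and in 5 of 6 for Psmb8. For Psmb9 the haplodeficient share was the higher one in 5 of 6 tubule classes, with intervals apart in 1. In endothelial-like cells Psmb8 was seen in 28.7% (23.9 to 33.8) of control cells, and in 39.9% (36.4 to 43.4) of haplodeficient cells, against 69.3% and 81.0% unthinned. B2m in neutrophil-like cells was seen in 62.5% (52.0 to 72.2) of control cells, and in 47.9% (43.7 to 52.1) of haplodeficient cells, the lower of both. As a gauge of stray RNA, C1qb, a macrophage gene, was found in at most 1.89% of thinned control and 2.65% of thinned haplodeficient cells of a tubule class (8.08% and 12.5% unthinned). Trac, a T cell gene, was found in at most 0.147% and 0.885% (3.85% and 5.03% unthinned). In proximal tubule-like cells Psmb8 was seen in 0.921% (0.597 to 1.36) of control cells, and in 4.23% (2.13 to 7.44) of haplodeficient cells, where the control share is within the range of C1qb, and the interval of the haplodeficient one reaches into it. By this gauge neither share is clear of background. C1qb, however, has its own level in free RNA. The free RNA estimate for Psmb8 itself covered the smaller part of its UMIs in these cells. How much of either share is background was not tested.

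**Figure D5:**
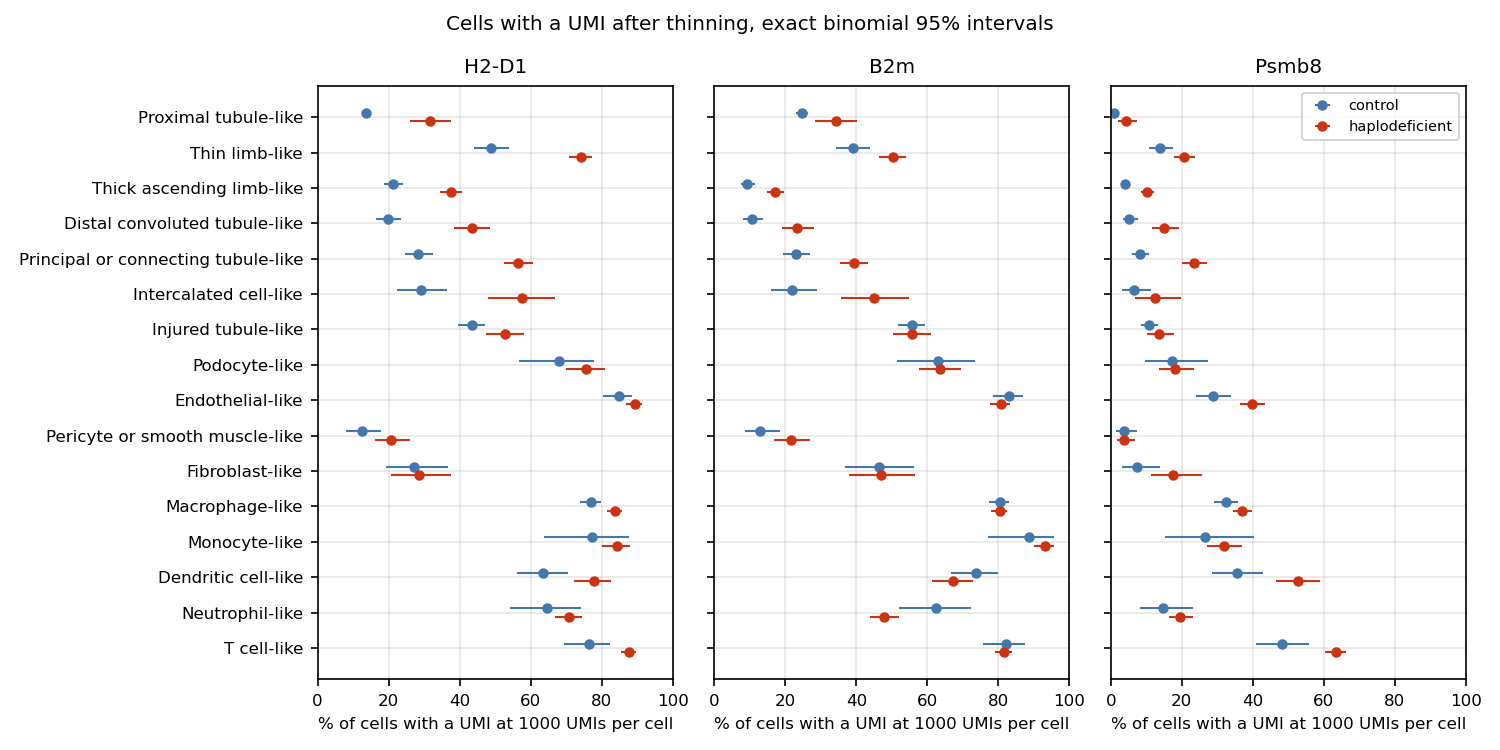
Percent of cells with at least 1 UMI of H2-D1, B2m or Psmb8 after thinning each cell to 1000 UMIs, per class, for the control (blue) and haplodeficient library (red), with exact binomial 95% intervals. In the tubule classes the haplodeficient share is the higher one for each gene, and the B2m share of neutrophil-like cells is the lower one.

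Several measures moved with these differences, and their part in them was not tested except where a value is given. The free RNA of barcodes with up to 100 UMIs held more of each gene in the haplodeficient library, such as Psmb8 at 314 against 69.8 CPM and H2-D1 at 1081 against 339 CPM. Free RNA was estimated at 2.31% to 6.75% of the UMIs of control and 1.78% to 5.72% of those of haplodeficient tubule classes. It could account for a median of 4.37% and 5.29% of the UMIs of a gene of the 10 in a tubule class, and for over 20% in 3 control pairs (Psmb8 and Psmb9 in proximal tubule-like, B2m in thick ascending limb-like cells) and 1 haplodeficient pair (Psmb9 in proximal tubule-like cells). After its subtraction the medians were 0.81 in the tubule, 0.21 in vessels and 0.25 in leukocytes. The 55 leukocyte markers summed to 1127 to 1672 CPM in control and 1432 to 2308 CPM in haplodeficient tubule classes, against 14483 and 18039 CPM in macrophage-like cells, and 15 to 39 and 7 to 32 of them were at 0. Cd63, Plac8 and G0s2 made up most of those sums. The other 52 (a split made after their values were seen) summed to 27.3 and 146 CPM in proximal tubule-like, 30.0 and 116 CPM in intercalated cell-like, and 128 and 115 CPM in principal or connecting tubule-like cells. They summed to 133 and 187 CPM in thin limb-like, 51.2 and 85.2 CPM in thick ascending limb-like, and 69.7 and 87.1 CPM in distal convoluted tubule-like cells. Their sum was thus larger in the haplodeficient library in every tubule class but principal or connecting tubule-like cells. Klrb1c, an NK cell gene, was at 0 in all tubule classes of both libraries. The median mitochondrial share of tubule classes lay between 4.44% and 23.5% in the control, and between 2.71% and 7.42% in the haplodeficient library. With CPM taken over the other UMIs the tubule median was 0.76, and with a mitochondrial limit of 25% it was likewise 0.76.

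Other genes of the pathway did not all move with the 10. The proteasome activator genes Psme1 and Psme2, which open the proteasome and are interferon-inducible, were higher in 15 and 16 of 16 classes. Psme2 went from 112 to 259 CPM in principal or connecting tubule-like and from 114 to 201 CPM in endothelial-like cells. Psme4, an alternative activator, was lower in 8 and higher in 0 of 16, and Psme3 met the minimum in 0. Pomp, a proteasome assembly factor, was higher in 11 of 16. Over these genes and Psmb10, 49 of 76 pairs that met the minimum were higher and 8 lower. Psmb10 was higher in 7 of the 12 classes in which it met the minimum, for example from 41.7 to 107 CPM in intercalated cell-like cells. Standard proteasome genes also differed: of 223 gene-by-class pairs that met the minimum, 141 were higher and 1 lower, with Psmb5 and Psmb6 each higher in 12 classes and Psmb7 in 1. Among loading genes 25 pairs were higher and 25 lower of 87. The chaperones Pdia3 and Hspa5 were higher in 11 and 13 classes and lower in 0, while Calr (8 lower, 1 higher) and Canx (9 lower, 0 higher) went the other way. Among the other class I molecules 14 of 46 pairs were higher and 5 lower, with H2-T22 higher in 5 of 8 classes and H2-Q7 higher in 3 and lower in 4. Among 20 regulators of class I transcription 20 of 111 pairs were higher and 29 lower. These are to be read against 27.8% and 23.2% of all pairs.

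Interferon-stimulated genes, a list that holds none of the 10 but does hold Irf1, were mostly higher. Of 144 pairs that met the minimum, 108 were higher and 11 lower, where 27.8% and 23.2% of all pairs were. Bst2 (tetherin) was higher in 13 of 14 classes, from 82.5 to 237 CPM in principal or connecting tubule-like and from 214 to 544 CPM in macrophage-like cells. Ifitm3, an antiviral membrane protein, was higher in 13 of 13, and Isg15, a ubiquitin-like modifier, in 12 of 13, with Isg15 from 91.3 to 270.0 CPM in thin limb-like and from 485 to 522 CPM in endothelial-like cells. Irf7 was higher in 6 of 7 classes, Ifi27l2a in 8 of 8 and Ifit1 in 4 of 4. Cxcl10, a chemokine for T cells, was higher in 8 and lower in 2 of 11 classes, the lower ones being injured tubule-like (201 to 134 CPM) and pericyte- or smooth muscle-like cells (160.3 to 34.8 CPM). In injured tubule-like cells, where 3 class I genes were higher and 3 lower, 1 of 4 interferon genes was higher and 2 were lower (38.7% and 30.1% of all genes). In endothelial-like cells 20 of 24 were higher and 2 lower (24.1% and 25.1% of all genes), and in intercalated cell-like cells 10 of 11 were higher (26.4%). Ifng, the type II interferon gene, met the minimum in T cell-like cells alone, with a log2 ratio of 1.73.

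Across the 32 profiles of 16 classes in 2 libraries, Tap1 and Psmb8 were the most alike pair of the 10 genes, with Pearson's r of 0.96, and Tapbp and Nlrc5 the least alike, at 0.39. Psmb8 was nearest to the mean of the others (0.95), and Nlrc5 and Tapbp (0.66 each) farthest from it. Outside the 10, the genes most like their mean profile among 3769 were Psmb10 (0.89), Rps27 (0.87), Tpm3 (0.87), H2-Q7 (0.85) and Ddx21 (0.84). These profiles share libraries, depth and cell makeup, so the values are descriptions.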

How the data were processed

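Droplet single-cell RNA libraries of 2 injured kidneys or pools were used, 1 per group, with groups taken from the labels. The deposited values are raw counts of UMIs per gene and barcode, with no cell filter or normalization, produced by the authors in Cell Ranger 4 (per the file headers) on mm10, per the submitters' processing notes. The libraries held 134190236 (control) and 114668145 UMIs (haplodeficient) over 1342632 and 1430043 barcodes. A cell hashing step is named in the labels' protocols; all features used here were genes.

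Cells had at least 500 UMIs, 200 genes and at most 50% mitochondrial UMIs (574 and 30 barcodes were over it). The 715 and 804 highest Scrublet scores were removed as doublets, at 0.8% per 1000 cells (scanpy 1.11.5). Both libraries were clustered together (2000 variable genes without class I or interferon genes other than markers, 30 components, 15 neighbours, Leiden resolution 1, leidenalg 0.10.2, scikit-learn 1.9.0) into 38 clusters, named from marker lists. Unnamed clusters held 333 and 337 cells.

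UMIs were summed per class and library as CPM with exact Poisson 95% intervals, CPM ratios with exact conditional binomial ones, shares with Clopper-Pearson ones, and log2 ratios after adding 5 CPM, which understates the ratio of low genes. Intervals cover counting error only, and a count of 0 allows up to 3 counts. Genes met the minimum at a mean of 50 CPM and 30 UMIs. The size rule was a log2 ratio of at least 1 with Poisson intervals apart, for genes that met the minimum. A compartment is the equally weighted mean of its classes. Medians of the ratios, and of their lower and upper limits, were taken over genes. Free RNA came from barcodes of 1 to 100 UMIs, and its share of a class from markers of other classes. The calls were tried on simulated Poisson counts, the model the intervals assume. Such counts hold no variation between animals or libraries, so they cannot gauge it. Named beside the 10 genes were pathway genes past the size rule in at least 3 classes (at most 12), the proteasome counterparts, Irf1, Rfx5 and the 5 genes most like the 10; others in the text were chosen after their values were seen, and 1 gene is not reported here. The members and lists were chosen with earlier results of these data known. Alternatives covered cell filters, clustering, scaling, weights, free RNA, pseudocount and minimum. Python 3.11.15, numpy 2.4.6, scipy 1.17.1 and pandas 2.3.3 were used.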

Additional observations from a re-analysis of the deposited data

Results flagged for a closer look

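Some genes differed in opposite directions in different classes, each beyond counting error; the difference between the classes was not tested. H2-K1 was lower in podocyte-like cells (-0.22 on the log2 scale) and higher in distal convoluted tubule-like cells (1.07, or 0.86 within their main cluster). B2m was lower in neutrophil-like cells (-0.46) and higher in distal convoluted tubule-like cells (1.04, or 0.84 within their main cluster). In injured tubule-like cells Tap2 (-0.39) and Tapbp (-0.20) were lower, while Tap2 was higher in thin limb-like (0.58) and Tapbp in intercalated cell-like cells (0.43). Nlrc5 was lower in pericyte- or smooth muscle-like cells (-1.06, on 22 and 15 UMIs) and higher in distal convoluted tubule-like cells (0.37).

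Cells outside the compared classes were in no comparison between classes. In an unnamed cluster of 280 control and 225 haplodeficient cells with genes of intercalated and principal cells, led by Slc26a4, 8 of the 10 genes were higher in the haplodeficient library, where 36.1% of all genes that met the minimum were; H2-D1 went from 334 to 652 CPM. In urothelium-like cells (20 and 27 cells) 5 were higher (7.37% of all), with B2m from 354 to 723 CPM. In NK cell-like cells (16 and 118 cells) 3 were higher (9.82% of all), with H2-D1 from 1303 to 2379.6 CPM. In an unnamed cluster with genes of endothelium and pericytes (42 and 70 cells) 1 was higher and 2 were lower, near the shares of all genes (12.4% and 22.1%), and in an unnamed cluster led by Igkc and Siglech (11 and 42 cells) 0 were higher and 0 lower, with a median log2 ratio of 0.09. Most of these rest on few cells, and none was tested.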

How the results depend on the processing

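No paired analysis was possible because each group has 1 library and no result comes from a test. For the same reason no replicate could be left out. The tubule median of 0.83 moved beyond the median limits of its genes with the cells of a compartment pooled (1.01) and with a pseudocount of 20 CPM (0.69). These were the highest and lowest of 16 alternatives. The vessel median of 0.23 was 0.093 when libraries had their own UMI minimums (6059 and 7394). The leukocyte median moved within the median limits of its genes, between 0.15 and 0.38. Of the tubule pairs (60 where no class was lost), the number lower, 1 in the main analysis, was 0 with a UMI minimum of 1000, each library's own UMI minimum, doublets kept, Leiden resolution 2 or the class taken from each cell alone, and 2 with each library clustered on its own. Of the vessel pairs, 4 of 10 were higher with own UMI minimums and 13 of 20 with doublets kept. None (0) was lower with a mitochondrial limit of 25%, either other UMI minimum, doublets kept, resolution 2, the class I and interferon genes left in the clustering or each cell named alone, and 2 were with free RNA subtracted. Of the leukocyte pairs 10 of 20 were higher with own UMI minimums. The number lower was 1 with doublets kept, each library clustered on its own or those genes left in, and 0 with each cell named alone. Vessels over tubule in the control (1.33) was 1.17 with a mitochondrial limit of 25%, 1.95 with own UMI minimums, 1.64 with each cell named alone, 2.04 pooled and 1.18 with a pseudocount of 20 CPM. In the haplodeficient library (0.76) it was 0.64 with the mitochondrial limit, 0.66 with a UMI minimum of 1000, 1.27 with own minimums, 0.65 with those genes left in, 1.09 with each cell named alone and 1.20 pooled. Leukocytes over tubule in the control (1.85) was 1.74 with doublets kept, 2.09 pooled, 1.51 with a pseudocount of 20 CPM and 1.75 with CPM over UMIs other than mitochondrial. In the haplodeficient library (1.42) it was 1.15 with own minimums and 1.16 with a pseudocount of 20 CPM. The share of all pairs called higher, 27.8%, was 19.1% with a minimum of 10 CPM and 10.2% with none. A change of direction was counted only for ratios that were higher or lower in the main analysis. Of 2290 single ratios under the alternatives 1986 moved by less than counting error, 288 by more, and 16 changed direction. The last were Nlrc5 in distal convoluted tubule-like cells (-0.070) and Tapbp in injured tubule-like cells (0.031) with cells weighted equally, and H2-K1 in podocyte-like cells with own minimums (0.25), each library on its own (0.10) or each cell named alone (0.14). With each cell named alone Tapbp (0.14) and Nlrc5 (0.023) in injured tubule-like cells, Nlrc5 in pericyte-like cells (0.0042) and B2m in dendritic cell-like cells (0.071) turned, the last also with median-of-ratios scaling (0.028). With own minimums Tapbp in endothelial-like (-0.016) and H2-T23 in dendritic cell-like cells (-0.013) turned, and B2m in macrophage-like cells turned with the mitochondrial limit (-0.0088), a UMI minimum of 1000 (-0.0064), resolution 2 (-0.0021) or those genes left in (-0.0048). The cause was not tested. Own UMI minimums left 6 classes without a value (intercalated, pericyte, fibroblast, monocyte, neutrophil and T cells), each library on its own left 3 (intercalated, injured tubule and dendritic cells), and doublets kept or those genes left in 1 (intercalated cells). The CPM over UMIs other than mitochondrial was chosen after the data were seen. Depth limits the low genes most: Tap1, Psmb9 and Nlrc5 in proximal tubule-like cells rest on 9 to 12 haplodeficient UMIs.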
